A study of Mus musculus with 4 samples.

Results

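Respiratory complex I, or NADH dehydrogenase, was followed through the messenger RNAs of 35 of its subunits that are encoded in the nucleus. The members were chosen by name, from the symbols Ndufa, Ndufab, Ndufb, Ndufc, Ndufs and Ndufv, with earlier results of these data known. All 35 had a row in the deposited table of 38293 genes, and all 35 passed the filter on low counts. RNA came from single hearts of C57BL/6 mouse embryos at stage E12.5, with the atria and valve region cut away, so the ventricles were measured. The labels write the knockout genotype, here cKO, as Hif1alphaflox/flox/Nkx2.5Cre/+ and the control genotype as Hif1alphaflox/flox/Nkx2.5+/+. Floxed Hif1a on both chromosomes was thus common to all embryos, and the Cre recombinase, placed at the Nkx2-5 locus, was present in cKO alone. Each group had 2 embryos, numbered 2 and 3, all from litter 6 and matched for somite number. The contrast addresses ventricular RNA after a Cre of heart precursors is aimed at Hif1a, which encodes the oxygen-sensitive partner of HIF-1.

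Complex I is the entry point of the respiratory chain. Its peripheral arm, which reaches into the mitochondrial matrix, takes electrons from NADH and passes them along iron-sulfur clusters to ubiquinone. Its membrane arm uses the released energy to pump protons. The catalytic core is conserved from bacteria and is encoded partly in the nucleus and partly in the mitochondrial genome, while the accessory subunits, all nuclear, surround and stabilise it. HIF-1 is known for raising glycolysis and restraining mitochondrial respiration in cells short of oxygen, and the embryonic ventricle moves from glycolysis towards respiration as it matures.

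Total expected counts ran from 8561687 to 19801300 per library, with the largest in cKO replicate 3. The same library was the only male, with Xist, the RNA of the inactive X, at 2.11 CPM, the count scaled to a common library total, against 1751 to 2094 CPM in the other 3. No group carried Cre without the floxed allele, so effects of the Cre and of losing 1 copy of Nkx2-5 cannot be told apart from those of Hif1a. Hif1a itself stood at 715 and 662 CPM in cKO and 529 and 551 CPM in control, a count over the whole gene that does not check the deletion (log2 fold change 0.35 ± 0.09 SE, adjusted p = 0.317 by edgeR and 0.0286 by DESeq2's test). Nkx2-5, the cardiac homeobox gene that holds the Cre, stood at 44.2 and 42.0 CPM in cKO and 55.8 and 64.8 CPM in control (adjusted p = 0.153). Heart muscle markers were abundant in every library, summing to between 44698 and 48690 CPM over 14 genes. The 8 atrial markers past the filter summed to between 2407 and 4795 CPM. The atria had been removed, and whether these RNAs came from atrial tissue was not tested. In all that follows, CPM are scaled by the trimmed mean of M values (TMM), fold changes are cKO over control, and adjusted p-values come from edgeR's quasi-likelihood test over 13711 genes.

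No complex I transcript passed the test in either direction (0 of 35 higher and 0 of 35 lower at an adjusted p of 0.05). Over all genes tested, 0.146% passed as higher and 0.365% as lower. The members nevertheless leaned to one side. Their median log2 fold change was 0.21, against -0.00034 over all genes, and 34 of 35 were positive, against 49.9% of all genes. In 29 members both cKO libraries lay above both controls, against 19.4% of all genes, and in 0 did both lie below, against 18.8%. Among the 29, Ndufa11 and Ndufa3 were near ties between cKO replicate 3 and control replicate 2. At an unadjusted p under 0.05 there were 12 members, all higher in cKO, against 3.39% of all genes in that direction and 3.58% in the other. DESeq2's own test called 0 of 35 (0.226% of all genes higher and 0.474% lower), as did limma-voom (0.146% and 0.387%). Since the members vary together from library to library, these counts are not 35 separate observations.

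**Figure D1:**
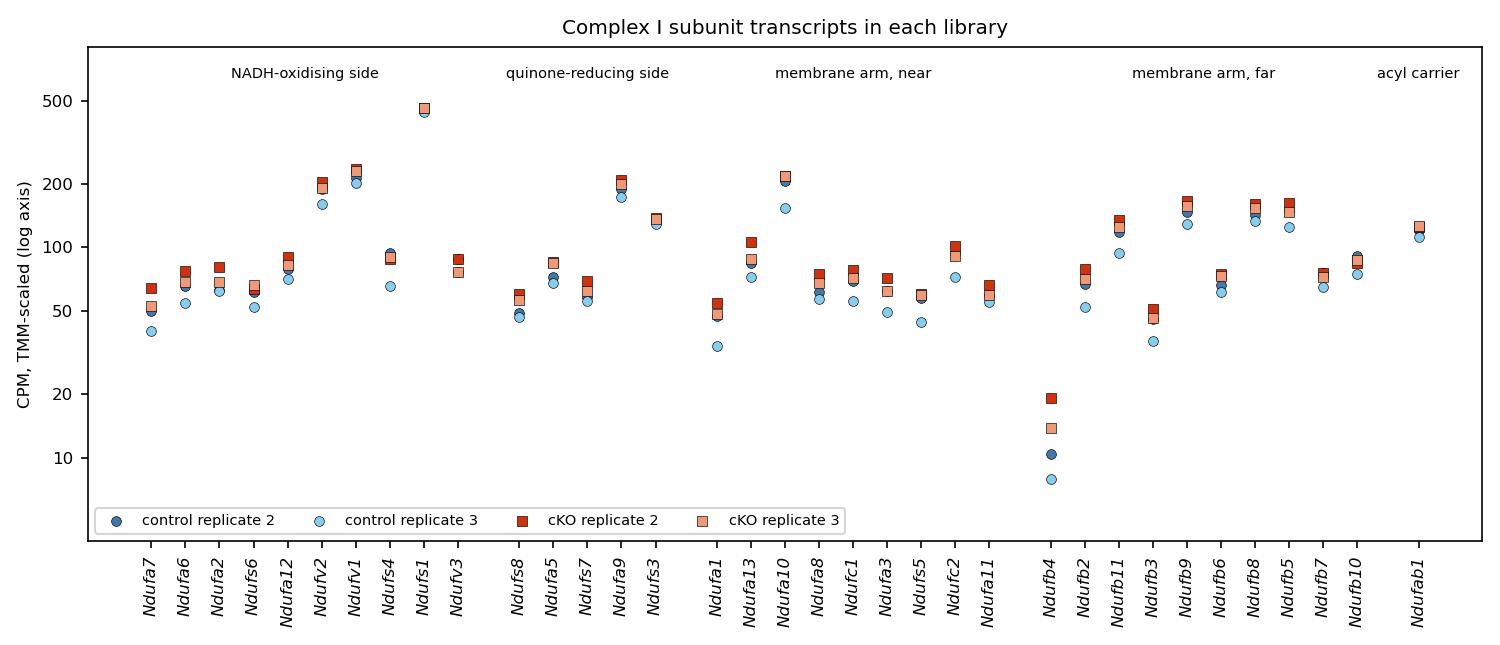
CPM (TMM-scaled, log axis) of each of the 35 members in each of the 4 libraries, ordered by the part of the enzyme they belong to; squares are cKO and circles are control. Control replicate 3, the light circle, is below control replicate 2 in all 35 members, and Ndufb4 lies far below the others.

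The spread between libraries of 1 genotype was of the same order as the difference between genotypes. Summed over the members, the transcripts took 3987 and 3768 CPM in cKO replicates 2 and 3 and 3642 and 3188 CPM in control replicates 2 and 3. Control replicate 3 was therefore set further from control replicate 2 than control replicate 2 was from cKO replicate 3. It lay below control replicate 2 in 35 of 35 members (51.3% of all genes), with a median log2 ratio of -0.22. In cKO, replicate 3 lay below replicate 2 in 30 of 35 members (50.4% of all genes), with a median log2 ratio of -0.12. The difference between the 2 controls was larger than the group log2 fold change in 17 members, and that between the 2 cKO libraries in 2 members. Between the nearest libraries of the groups, cKO replicate 3 and control replicate 2, cKO was the higher in 29 members (50.4% of all genes). These were the same 29 members already counted as having both cKO libraries above both controls. Without control replicate 3 the members' median log2 fold change was 0.12, and without control replicate 2 it was 0.32.

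The 95% intervals of the fold changes bound what these 4 libraries can show. They included no change for 23 members and lay above it for 12, before any adjustment for the number of genes. Leaving out Ndufb4, the upper bounds ran from 1.17-fold to 1.61-fold. The lowest lower bound of any member was 0.8405-fold.

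**Figure D2:**
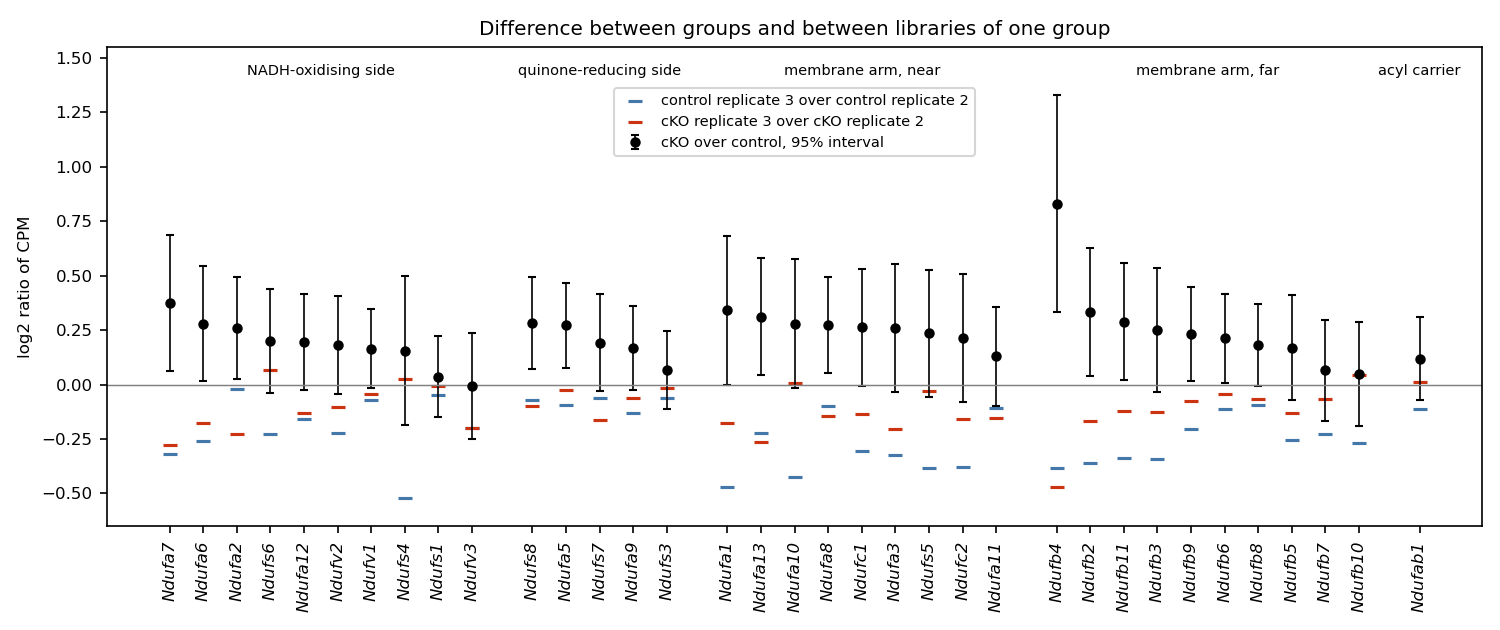
Log2 fold change of each member, cKO over control, with its 95% interval (black), beside the log2 ratio between the 2 control libraries (blue) and between the 2 cKO libraries (red). Black points lie above 0 in 34 of 35 members, and the blue marks lie below 0 in all 35.

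The catalytic core was represented by 6 members, with a median log2 fold change of 0.17. Each had both cKO libraries above both controls, against 19.4% of all genes. In Ndufs1 and Ndufs3, as in Ndufv2, the 2 controls lay further apart than the nearest libraries of the groups. The flavoprotein Ndufv1, which binds NADH and receives its electrons, stood at 237 and 230.0 CPM in cKO and 213 and 203 CPM in control (log2 fold change 0.17 ± 0.08 SE, adjusted p = 0.727). Its libraries did not overlap between groups. Ndufv2, the iron-sulfur protein beside it, stood at 206 and 192 CPM in cKO and 189 and 162 CPM in control (0.18 ± 0.10, adjusted p = 0.760), where the gap between the 2 controls exceeded that between the nearest libraries of the groups. Ndufs1, the largest of the iron-sulfur subunits, stood at 461 and 459.7 CPM in cKO and 456 and 442 CPM in control. A log2 fold change of 0.04 ± 0.08 (adjusted p = 0.949), with a 95% interval from -0.15 to 0.22, left the groups almost level.

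Ndufs7 and Ndufs8 carry the iron-sulfur clusters nearest to ubiquinone. Ndufs8 stood at 60.0 and 56.1 CPM in cKO and 48.9 and 46.4 CPM in control, with a log2 fold change of 0.28 ± 0.09 (adjusted p = 0.546). The gap between the groups was wider than that within either, and Ndufs8 was the one core member with an interval that lay wholly above 0 (0.07 to 0.49). For Ndufs7 the values were 69.1 and 61.8 CPM in cKO and 58.3 and 55.9 CPM in control, with a log2 fold change of 0.19 ± 0.10 (adjusted p = 0.737). Both cKO libraries were the higher ones, and they differed more from each other than the controls did. Ndufs3, a core subunit without a cluster, stood at 139 and 137 CPM in cKO and 134 and 129 CPM in control (0.07 ± 0.08, adjusted p = 0.896), a narrow range with no overlap.

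The accessory subunits were 29 in number, with a median log2 fold change of 0.24. Of these, 28 were positive and 23 had both cKO libraries above both controls, against 49.9% and 19.4% of all genes. In the NADH-oxidising part, core subunits included, 8 of 10 members lay without overlap above control and the median log2 fold change was 0.19. The quinone-reducing part had 5 of 5 and a median of 0.19, the near side of the membrane arm 8 of 9 and 0.26, and its far side 7 of 10 and 0.22. The share over all genes was 19.4% for each of these counts, and differences among the parts were not tested.

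In the NADH-oxidising part, Ndufa7 stood at 64.02 and 52.8 CPM in cKO and 49.8 and 39.95 CPM in control (0.37 ± 0.14, adjusted p = 0.625). The groups did not overlap, but the distance between the 2 controls was larger than that from cKO replicate 3 to control replicate 2. Ndufa2, which has a thioredoxin-like fold, ran from 61.7 to 80.5 CPM with a log2 fold change of 0.26, and Ndufa6, which holds an acyl carrier protein, from 54.6 to 77.4 CPM with 0.28. Ndufa12 ran from 71.1 to 90.2 CPM with a log2 fold change of 0.20, and Ndufs6, which binds zinc, from 52.3 to 66.6 CPM with 0.20. The other two accessory members of this part overlapped between groups. Ndufs4, a subunit whose loss causes Leigh syndrome, stood at 88.4 and 89.9 CPM in cKO and 94.4 and 65.8 CPM in control, so that control replicate 2 was the highest library and control replicate 3 the lowest. The resulting log2 fold change was 0.16, and -0.082 without control replicate 3.

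Ndufv3 had the lowest fold change of the members and the only negative one. Its values were 88.05 and 76.7 CPM in cKO and 88.3 and 76.8 CPM in control. The replicates numbered 2 matched each other across genotypes, as did those numbered 3, and the groups overlapped fully (log2 fold change -0.01 ± 0.11, adjusted p = 0.995). Its sign turned positive with upper-quartile scaling (0.01), with no filter on low counts, with cKO replicate 3 thinned, and without cKO replicate 3 or control replicate 2.

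On the quinone-reducing side, Ndufa5 stood at 85.7 and 84.3 CPM in cKO and 72.7 and 68.0 CPM in control. This was among the clearest separations of the list, with libraries close together within each group (0.27 ± 0.08, adjusted p = 0.527). Ndufa9, which lies near the ubiquinone site, ran from 173 to 209 CPM over the 4 libraries with a log2 fold change of 0.17 and no overlap.

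At the near side of the membrane arm, Ndufa8, a disulfide-bonded protein that faces the intermembrane space, stood at 75.1 and 68.0 CPM in cKO and 61.1 and 57.1 CPM in control (0.27 ± 0.10, adjusted p = 0.605). Ndufa13, also known as GRIM-19, stood at 106 and 88.3 CPM in cKO and 84.1 and 72.1 CPM in control (0.31 ± 0.12, adjusted p = 0.648). Neither gene overlapped between groups, and cKO replicate 2 was the highest library for both. Ndufa10 stood at 219 and 219.7 CPM in cKO and 207 and 154 CPM in control, with a log2 fold change of 0.28. Here 3 libraries were close together and control replicate 3 alone was low. Without that library the log2 fold change of Ndufa10 was 0.08.

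The remaining autosomal members of this side were small proteins with log2 fold changes between 0.13 and 0.26. The X-linked Ndufa1, which had the highest of this side, is described with Ndufb11 (0.34). Ndufa3 ran from 49.5 to 71.6 CPM (0.26), Ndufa11 from 55.0 to 66.0 CPM (0.13), Ndufc1 from 55.8 to 78.5 CPM (0.26) and Ndufs5 from 44.0 to 60.3 CPM (0.24), each without overlap. For Ndufa11 and Ndufa3 the nearest libraries were almost level. In cKO replicate 3 and control replicate 2, Ndufa11 stood at 59.37 and 59.35 CPM, and Ndufa3 at 62.07 and 61.95 CPM. Ndufc2 ran from 72.5 to 102 CPM (0.21) and overlapped, since control replicate 2 lay above cKO replicate 3.

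Both X-linked members were examined library by library because cKO replicate 3 was male. Ndufa1 (GRCm38 chromosome X, 37187588 to 37191163, minus strand) stood at 54.4 and 48.2 CPM in cKO and 47.0 and 33.9 CPM in control (0.34 ± 0.15, adjusted p = 0.708). Ndufb11 (chromosome X, 20615326 to 20617619, minus strand) stood at 136 and 125 CPM in cKO and 119 and 94.3 CPM in control (0.29 ± 0.12, adjusted p = 0.687). In both genes the male library lay between the female cKO library and the higher control, and control replicate 3 was the lowest. With the members on chromosomes 17 and X left out, 28 remained, all 28 positive, with a median log2 fold change of 0.22. Chromosome 17 was left out with X because it carries Nkx2-5, and it holds Ndufb10, Ndufv3, Ndufa7, Ndufa11 and Ndufv2.

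At the far side of the membrane arm, Ndufb2 stood at 79.4 and 70.7 CPM in cKO and 66.9 and 52.1 CPM in control (0.33 ± 0.13, adjusted p = 0.661). The groups did not overlap, yet the controls differed from each other by more than the group means did on the log2 scale (-0.36 between them). Ndufb9, which like Ndufa6 holds an acyl carrier protein, ran from 129 to 167 CPM (0.23), Ndufb3 from 35.9 to 50.7 CPM (0.25), Ndufb6 from 61.3 to 75.1 CPM (0.21) and Ndufb8 from 134 to 161 CPM (0.18), all without overlap. The members that overlapped were Ndufb5, from 125 to 162 CPM (0.17), Ndufb7, from 64.8 to 75.9 CPM (0.07), and Ndufb10, from 75.2 to 90.6 CPM (0.05). Without control replicate 3 the log2 fold change was -0.043 for Ndufb7 and -0.081 for Ndufb10.

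Ndufb4 (GRCm38 chromosome 16, 37647170 to 37654453, minus strand) had the largest fold change and the smallest p of the members. It stood at 19.2 and 13.8 CPM in cKO and 10.4 and 7.92 CPM in control, a log2 fold change of 0.83 ± 0.22 (95% interval 0.33 to 1.33, adjusted p = 0.357). The groups did not overlap. Its count, however, is shared with a processed pseudogene on chromosome 15, Ndufb4c. Over its 390 bases this copy is identical to the coding sequence of Ndufb4, read from the GENCODE transcripts on GRCm38. The sequence is shown because no read of 75 bases from within it can be placed at one locus rather than the other. The first 300 bases from the start codon are given, all in lower case, since there is no difference to mark:
Ndufb4 and Ndufb4c: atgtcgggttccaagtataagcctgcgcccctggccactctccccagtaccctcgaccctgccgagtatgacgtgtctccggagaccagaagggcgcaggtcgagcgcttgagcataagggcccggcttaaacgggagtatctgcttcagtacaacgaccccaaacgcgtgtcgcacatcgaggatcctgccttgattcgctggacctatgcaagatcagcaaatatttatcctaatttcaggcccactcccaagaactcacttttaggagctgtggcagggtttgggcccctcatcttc
The transcript of Ndufb4 is 971 bases long, so that only reads touching its untranslated part are its own. In the deposited values Ndufb4c stood at 46.4 and 46.5 CPM in cKO and 44.8 and 35.2 CPM in control, above Ndufb4 in every library. Ndufb4 held 29.2% and 22.9% of the sum of both loci in cKO and 18.8% and 18.4% in control.

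Summed over both loci, the values were 65.6 and 60.3 CPM in cKO and 55.2 and 43.1 CPM in control. The log2 fold change of the sum was 0.36 ± 0.13 (adjusted p = 0.618), less by more than 1.5 times than that of Ndufb4 alone and close to those of Ndufa7 and Ndufb2. Whether reads of Ndufb4 were divided differently in the 4 libraries was not tested.

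**Figure D3:**
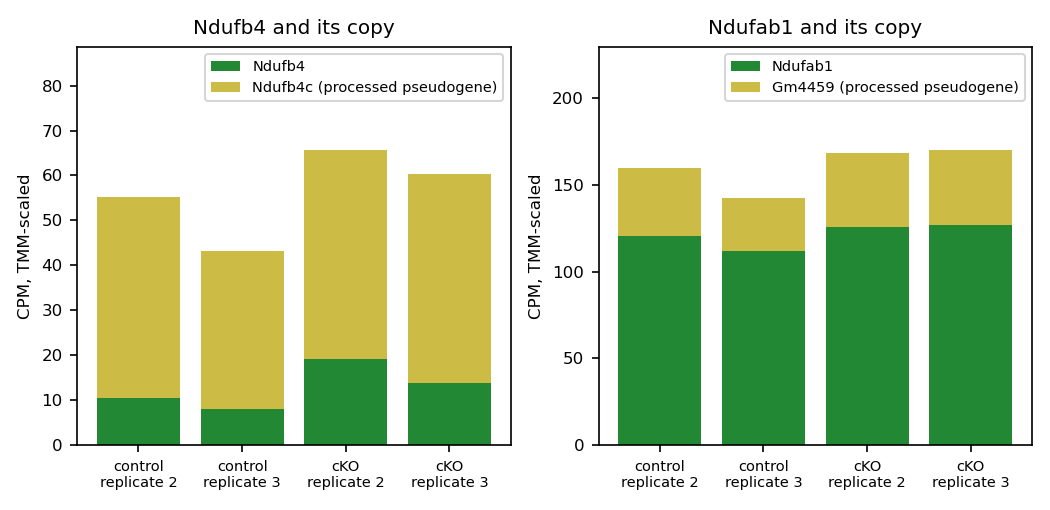
CPM (TMM-scaled) of Ndufb4 with its copy Ndufb4c (left) and of Ndufab1 with its copy Gm4459 (right) as stacked bars, 1 bar per library. The green part for Ndufb4 is between 18.4% and 29.2% of the bar, and for Ndufab1 between 74.4% and 78.5% of the gene and its copies.

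Ndufab1, the acyl carrier protein bound by the LYR subunits Ndufa6 and Ndufb9, shares reads in the same way. Its pseudogene Gm4459 matches it over 468 bases at 99.8% identity, with the single substitution G137A, counted from 1 at the first base of the start codon, the gene's base first. The 75 bases around it, a stretch as long as 1 read, are shown with the differing base in capitals. Only reads over this base, or beyond the copy, separate Ndufab1 from Gm4459:
Ndufab1: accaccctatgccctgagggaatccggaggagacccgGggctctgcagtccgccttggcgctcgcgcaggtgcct
Gm4459: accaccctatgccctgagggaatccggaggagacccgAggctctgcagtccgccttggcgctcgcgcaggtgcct
Ndufab1 stood at 126 and 127 CPM in cKO and 121 and 112 CPM in control, a log2 fold change of 0.12. Gm4459 stood at 42.8 and 43.3 CPM in cKO and 38.8 and 30.5 CPM in control. A second copy, Ndufab1-ps, matched over 469 bases at 99.4% identity. It had 14.16 expected counts in control replicate 2, 4.66 in cKO replicate 3 and 0 in the other libraries. With the copies summed, the log2 fold change of Ndufab1 became 0.16 ± 0.09 SE, and its adjusted p was 0.764. Near-identical copies, at 95% identity or more over 300 bases or more, existed for 7 members in all. Those of Ndufa12, Ndufb11, Ndufs5 and Ndufs6 were listed at 0 counts in all 4 libraries, and that of Ndufs3 at no more than 2.02. Summing them left the members' median at 0.21.

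Several members also overlap a gene on the opposite strand, and the counting is not stated to have used strand, so reads there cannot be assigned. Of the exonic bases, the overlap took 39.0% in Ndufb6 (with Smim27), 30% in Ndufa13 (with Tssk6) and 12.9% in Ndufb11 (with Rbm10). It took 12.3% in Ndufb5 (with Mrpl47) and 11.5% in Ndufa2 (with Tmco6). Expected counts per library ran from 24.5 to 57.4 for Smim27 (557 to 1453 for Ndufb6). For Tssk6 they ran from 4.05 to 10.01 (655 to 1762 for Ndufa13), and for Rbm10 from 624 to 1349 (857 to 2492 for Ndufb11). Those of Mrpl47 ran from 278 to 796 (1140 to 2949 for Ndufb5), and those of Tmco6 from 93 to 179 (530 to 1371 for Ndufa2).

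Levels can be compared between members only per length. As control CPM per kilobase of the longest listed transcript, they ran from 9.43 for Ndufb4 and 13.6 for Ndufb2 to 169 for Ndufs1 and 197 for Ndufb9. The order depended on the length used. Ndufs1 ranked 2 of 35 by that length, 1 by the median transcript and 17 by the union of its exons. Counted without its copy, Ndufb4 was the lowest and Ndufb2 the next by all 3 lengths. With Ndufb4c, whose reads cannot be told from its own over the coding sequence, added to it, Ndufb4 stood at 50.7 control CPM per kilobase of its longest listed transcript and ranked 30 of 35, above Ndufb2. The rank of Ndufb4 with Ndufb4c added was 33 by the median transcript and 31 by the union of its exons.

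Promoters were read from the RefSeq table for GRCm38.p6, as windows from 250 bases before to 50 after a gene's start. Of the 35 members 32 matched, with 34 windows. They were rich in CpG dinucleotides, with a median of 20 per window against 7 over all promoters, and had a median GC content of 59.2% against 52.7%. Motifs were searched on both strands. NRF-1, a transcription factor known to act on genes of the respiratory chain, has a motif that was searched as GCGC, any base, then TGCGC. It was in 23.5% of the members' windows and 4.6% of all 32851 windows. This comparison, like those of the other motifs, was not matched for CpG content, and the motif itself contains CpG. The NRF-1 motif lay in the windows of Ndufa11, Ndufa5, Ndufa6, Ndufa8, Ndufb4, Ndufs5 and Ndufs6. None of its 10 matches, counted per window, overlapped another motif searched. Overlapping windows of Ndufa5 held the same match, which was counted in each. Ndufb4 held 3 matches. Stretches around the first match are shown for members in which it lies upstream of the gene, 5′ to 3′ on the gene's strand, with the motif in capitals:
Ndufa11 (chr17:56717672-56717741, plus strand): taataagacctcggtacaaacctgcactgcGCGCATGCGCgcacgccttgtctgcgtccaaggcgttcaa
Ndufb4 (chr16:37654520-37654589, minus strand): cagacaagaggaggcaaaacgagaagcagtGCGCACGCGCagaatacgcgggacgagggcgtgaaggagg
Ndufs5 (chr4:123718245-123718314, minus strand): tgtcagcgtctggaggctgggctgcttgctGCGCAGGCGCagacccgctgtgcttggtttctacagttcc
These members had log2 fold changes of 0.13, 0.83 and 0.24. Summed with its copy, Ndufb4 had 0.36. The YY1 motif AAGATGGCG was in 14.7% of members' windows and 1.4% of all (Ndufa9, Ndufc1, Ndufs4, Ndufs6 and Ndufs7). The ETS motif CCGGAAG was in 11.8% against 8.9%, and ACGTG, the core to which HIF-1 binds, in 20.6% against 19.6%. TATAAA was in 14.7% against 13.6%, CCAAT in 29.4% against 37.4%, and the motif of the estrogen-related receptors, TCAAGGTCA, in 0 of 34 windows against 0.4%. A match describes letters in a window and does not show binding.

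The rest of the respiratory machinery was read from lists of genes defined by function. Beside each list stand the shares over all genes: 0.146% passed as higher and 0.365% as lower, 3.39% and 3.58% had an unadjusted p under 0.05 in those directions, 49.9% were positive, and 19.4% lay without overlap above control and 18.8% below. The nuclear genes of complexes II to V leaned the same way as complex I. Of 37 tested, 0 passed the test, 8 had an unadjusted p under 0.05, 36 were positive, 23 had both cKO libraries above both controls (19.4% of all genes) and the median log2 fold change was 0.19. Atp5k, a small subunit of ATP synthase, stood at 134 and 124 CPM in cKO and 105 and 94.5 CPM in control (0.37 ± 0.09, adjusted p = 0.291). Uqcr11 of complex III had 0.38 ± 0.11 (adjusted p = 0.428). Proteins of the mitochondrial ribosome, which translates the subunits encoded in the mitochondrial genome, had a median of 0.14. There 64 of 77 were positive, 43 lay without overlap above control and 2 below (19.4% and 18.8% of all genes), 7 had an unadjusted p under 0.05 and 0 passed (Mrpl47, 0.31, adjusted p = 0.470; Mrpl27, 0.37, adjusted p = 0.575).

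Assembly factors, which build complex I but do not remain in it, had a median of 0.12. Of 17 tested 0 passed, 14 were positive, 8 lay without overlap above control and 1 below (19.4% and 18.8% of all genes), and 1 had an unadjusted p under 0.05. That one was Ndufaf2, a chaperone of late assembly, at 19.4 and 16.1 CPM in cKO and 13.2 and 12.9 CPM in control (0.43 ± 0.15, adjusted p = 0.595). Tmem126b, which helps to build the membrane arm, had 0.22 ± 0.11 (adjusted p = 0.744).

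The 7 core subunits that the mitochondrial genome encodes did not separate by genotype. Together they stood at 26357 and 21378 CPM in cKO and 24582 and 21082 CPM in control, so the libraries ordered by replicate number rather than by group. None of the 7 was free of overlap, 0 passed the test, 0 had an unadjusted p under 0.05, and the median log2 fold change was 0.098. The smallest p belonged to mt-Nd3 (0.28 ± 0.18, adjusted p = 0.797) and mt-Nd6 (0.17 ± 0.15, adjusted p = 0.859). The whole mitochondrial genome took 8.73% and 7.61% of counts in cKO and 8.10% and 6.89% in control.

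Regulators of mitochondrial biogenesis had a median of -0.06. Of 14 tested, 4 were positive, 2 lay without overlap above control and 5 below, against 49.9%, 19.4% and 18.8% of all genes, and 0 had an unadjusted p under 0.05 and 0 passed. Polrmt, the mitochondrial RNA polymerase, had -0.15 ± 0.11 (adjusted p = 0.820), and Nrf1, which encodes NRF-1, stood at 32.5 and 33.0 CPM in cKO and 34.9 and 36.0 CPM in control (-0.11 ± 0.09, adjusted p = 0.837).

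**Figure D4:**
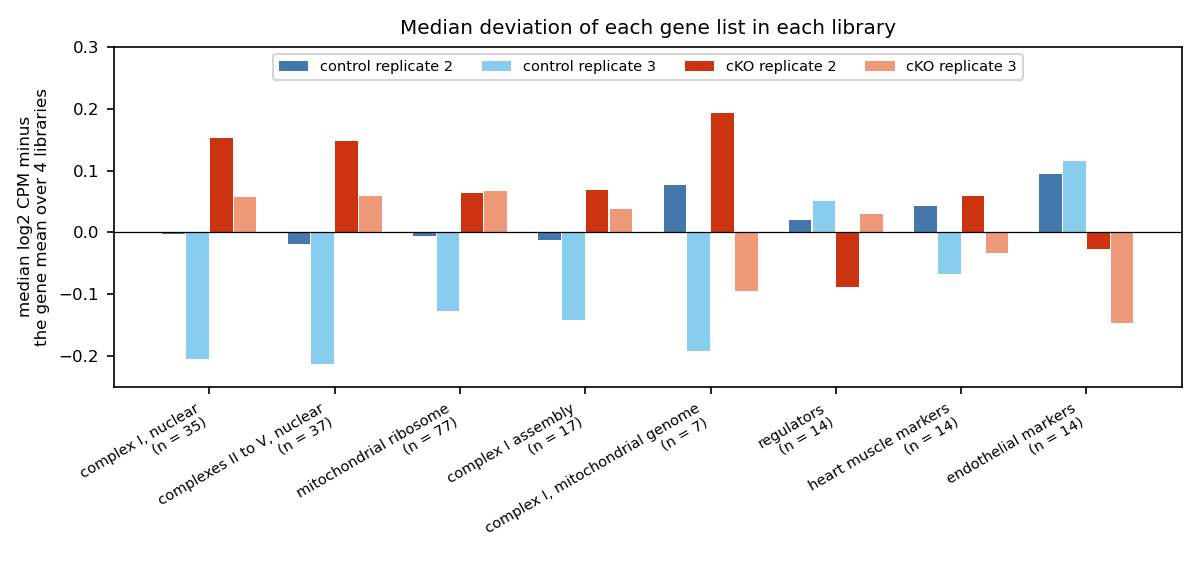
Median over each gene list of the deviation of log2 CPM from the gene's mean over the 4 libraries, 1 bar per library. For complex I the bars stand at 0.15 and 0.06 in cKO and at -0.0029 and -0.20 in control, and those of complexes II to V lie close to them.

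Markers of other cells differed in how they stood between the groups, and 1 of those tested, Krt19, passed the test. Over all genes tested, 49.9% were positive, 19.4% lay without overlap above control and 18.8% below, and 3.39% had an unadjusted p under 0.05 as higher and 3.58% as lower. In bulk tissue, fewer cells of a type and less RNA per cell cannot be told apart. All 14 endothelial and endocardial markers had negative log2 fold changes (median -0.22), 9 of them without overlap and 7 with an unadjusted p under 0.05, and 0 passed. They summed to 1764 and 1624 CPM in cKO and 1898 and 2014 CPM in control, with Flt1 at -0.29 (adjusted p = 0.515) and Esam at -0.29 (adjusted p = 0.567). Of 11 epicardial markers 10 were negative (median -0.23), and their sum ran from 327 to 418 CPM in cKO and from 404 to 460 CPM in control. Krt19, a keratin of the epicardium, fell, with a log2 fold change of -1.03 ± 0.16 SE (adjusted p = 0.0347), while Msln had -0.69 (adjusted p = 0.137). The call for Krt19 was lost without cKO replicate 3 (adjusted p = 0.0754 by edgeR), control replicate 2 (0.108) or control replicate 3 (0.260), with no filter (0.0620) and at a mean of at least 5 CPM (0.0601). Of 6 smooth muscle and pericyte markers 5 were negative (median -0.19), with sums of 895 and 1023 CPM in cKO and 1330 and 1347 CPM in control (Acta2, -0.63, adjusted p = 0.0597; Tagln, -0.42, adjusted p = 0.153). Acta2, the actin of smooth muscle, passed DESeq2's test (adjusted p = 9.89e-07), limma-voom (0.0393), edgeR with the replicate block (0.0207) and edgeR without cKO replicate 3 (0.0242).

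Heart muscle markers were divided evenly, with 7 of 14 positive and a median of 0.0024 (Actn2, -0.20, adjusted p = 0.708; Myh7, -0.19, adjusted p = 0.733). Erythroid markers were lowest in cKO replicate 2, the library highest in complex I, at 2836 CPM, and highest in cKO replicate 3 at 6858, with 5357 and 6217 CPM in control. All 12 were negative, 1 of them without overlap (median -0.24; Slc4a1, -0.66; Hba-x, -0.52). Immune markers summed to 35.2 and 41.9 CPM in cKO and 29.6 and 72.5 CPM in control, so that control replicate 3, the library lowest in complex I, was the highest (8 genes, 3 positive, median -0.06; Mrc1, -0.75; Csf1r, -0.50). Cushion mesenchyme markers were 5 of 10 positive (median 0.05, sums 2411 and 3004 CPM in cKO and 2580 and 2934 CPM in control; Sox9, 0.43; Tbx20, 0.11). Atrial markers were highest in cKO replicate 2, at 4795 CPM against 2407 in cKO replicate 3 and 3046 and 2790 CPM in control, with 3 of 8 positive (median -0.07; Kcna5, -1.05; Myl7, -0.19). Among markers under the filter, Myh11 of smooth muscle had 3 to 9 counts per library, the immune genes Aif1 and Tyrobp 1 to 14, and the atrial gene Sln 0 to 3. What part these cells have in the values of complex I was not tested.

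Transcript length also moved with the fold changes. The members are short, with a median length of 704 bases against 2191 over all genes. In the shortest quartile of genes (95 to 1255 bases, 3394 genes) the median log2 fold change was 0.06 and 63% of genes were positive. In the longest quartile (3471 to 123179 bases) the median was -0.04 and 35.7% were positive. The shortest quartile held 32 members, whose median was 0.22. Among the 833 genes in both the shortest and the most abundant quartile, 62.7% were positive with a median of 0.05, and the 21 members among them had a median of 0.20. The part of length in the members' values was not tested beyond these counts.

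**Figure D5:**
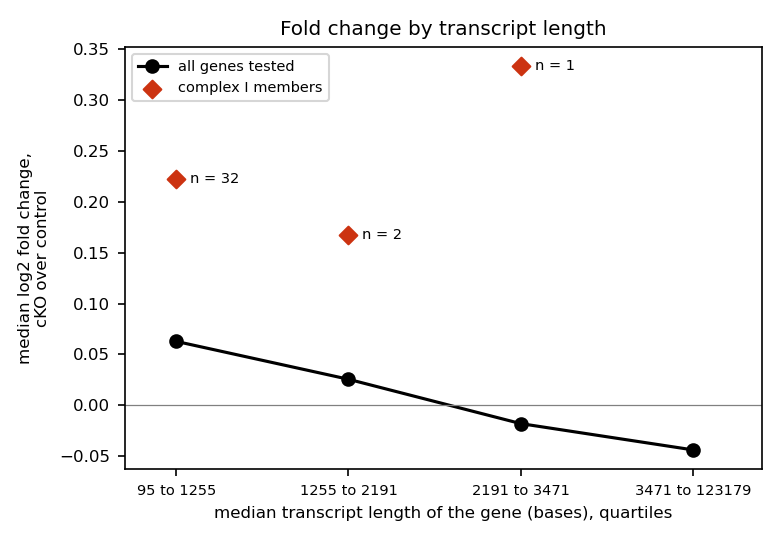
Median log2 fold change of all genes tested (black) and of complex I members (red) in quartiles of transcript length in bases. The black points descend from 0.06 to -0.04, and the 32 members of the shortest quartile lie at 0.22.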

How the data were processed

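Polyadenylated RNA of 2 cKO and 2 control ventricles was sequenced as single reads of 75 bases, per the labels' protocols. Gene-level expected counts were deposited by the authors in 1 table; such estimates divide a read among the genes it fits. The submitters' processing notes name RSEM 1.2.3, cutadapt 1.3, CASAVA 1.8.2 and GRCm38. Annotation, settings and use of strand: not given in the sources used here. Between 13.94% and 16.93% of values per library were not whole. Symbols came from GENCODE release M21 (36429 of 38293 identifiers); those without one held 0.305% to 0.318% of counts.

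Expected counts were rounded, filtered by edgeR's filterByExpr (minimum count 10, minimum total 15), scaled by TMM and compared with glmQLFit and glmQLFTest (edgeR 4.0.16, R 4.3.3), with Benjamini-Hochberg adjustment over 13711 genes, a threshold of 0.05 and 2 residual degrees of freedom. SE is the log2 fold change over the square root of F, and 95% intervals use the fit's total degrees of freedom, 8.141. Most of these come from variance information shared across genes and not from the 4 libraries' values of the gene itself. The steps were run on simulated counts with known changes, each larger than that of any member but Ndufb4. Recovery of changes as small as those of the other members was not tested. Copies were found with BLAST 2.17.0. Alternatives were DESeq2 1.42.0 (size factors, test), limma 3.58.1 voom, other scalings and filters, cKO replicate 3 thinned, copies summed, the replicate block and each library left out.

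Members and lists were chosen with earlier results of these data known. All members are named. Every library's value is given for the core, the 6 others of smallest p, the lowest fold change and the X-linked members; Ndufs4, Ndufa10 and Ndufab1 were added after their values were seen. Each other list gives its 2 genes of smallest p. Replicates were separate embryos of 1 litter and were not repeats of 1 library (their counts gave a chi-square per degree of freedom of 12.2 in cKO and 5.54 in control).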

Additional observations from a re-analysis of the deposited data

How the results depend on the processing

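With 2 embryos a group, the number of called genes moved with the processing: 20 genes were higher in cKO, 31 by DESeq2's test, 10 at a mean of at least 5 CPM and 15 to 72 with 1 library left out (72 without cKO replicate 2). Lower in cKO were 50, and 24 to 69 with 1 library left out (24 without control replicate 3, 69 without cKO replicate 2). A left-out library leaves a lone sample assumed to vary like the other group.

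No member was called under any alternative run, and the smallest adjusted p was 0.0907 (Ndufb4, replicate block). The members' median log2 fold change was 0.12 to 0.32 with 1 library left out and 0.21 to 0.23 otherwise. Positive members numbered 31 to 35 of 35 (31 without control replicate 3, where 51.3% of all genes were positive). Members without overlap numbered 28 to 34 (34 without control replicate 2, where 37.8% of all genes do so). With 1 of the other libraries left out they numbered 29 to 31, against 32.1% to 35.2% of all genes. Upper-quartile scaling made 55.3% of all genes positive.

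With 1 library left out, log2 fold changes ran from -0.081 to 0.19 for Ndufb10, -0.043 to 0.18 for Ndufb7 and -0.082 to 0.44 for Ndufs4, each negative without control replicate 3 alone, and from -0.10 to 0.097 for Ndufv3, positive without cKO replicate 3 (0.094) or control replicate 2. Ndufv3 was also positive with upper-quartile scaling (0.015), no filter (0.00049) and cKO replicate 3 thinned (0.016). The cause was not tested. With the replicate number as a block, 22 genes were higher and 54 lower, and the members' median was 0.23; same-numbered deviations correlated at 0.106 across genes, and nothing in the labels says that the numbers pair embryos.

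The length of the longest listed transcript, and the level of Ndufb4 summed with its copy, were chosen after seeing the data.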

Other observations

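Ndufa4, which is not among the 35, was looked up after the members' values were seen. It was named as a complex I subunit and is now counted with cytochrome oxidase. Ndufa4 stood at 293 and 272 CPM in cKO and 245 and 179 CPM in control (log2 fold change 0.41 ± 0.14 SE, adjusted p = 0.569 by edgeR). The groups did not overlap, and control replicate 3 was the lowest library.

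Ndufa4l2, a related gene known to be induced by HIF-1, had expected counts of 3 and 18 in cKO and 12 and 4 in control. It did not pass the filter on low counts and was not tested.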
